A study of Rattus norvegicus with 8 samples.

Results

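The circadian clock genes on an expression array of rat osteoblast-like cells are described here: the activators Arntl and Clock, the repressors Per1, Per2, Per3, Cry1, Cry2, Nr1d1 and Nr1d2, and the output gene Dbp. A probe was taken when the gene name written for it on the array equalled one of these 10 names. All 10 genes were found among the 34912 gene names of the array, with 16 of its 45598 rat probes. Of the 16, 12 probes for 9 genes were bright enough to be tested, among 26400 tested probes.

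Gene expression was measured on 8 one-colour arrays, 4 from cells left without laser exposure and 4 from cells exposed to an Er:YAG laser, an infrared laser used in dentistry, at 3.3 J/cm2 over 60 s. Cells of both groups were collected at 6 h, and the arrays address which genes differ after low-level exposure. The replicates carry the numbers 1 to 4 in both groups, and the irradiated and the non-irradiated array of a number are treated as a pair. Each array was hybridized with labelled RNA made from 200 ng of total RNA.

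Non-irradiated group: primary osteoblast-like cells from the calvariae of Wistar rats 3 to 5 days old, whose dishes received no laser exposure. Irradiated group: the same kind of cells, exposed at 3.3 J/cm2 with the medium taken off. For both groups the labels list a growth medium with fetal bovine serum and an osteoinduction medium, made from it with 50 μg/mL ascorbic acid, 10 mM β-glycerophosphate and 10 nM dexamethasone, a glucocorticoid. The cells were released from bone pieces by repeated enzyme digestion, so a culture may hold several cell types. The number of arrays, 4 a group, limits the precision, and there is 1 time of collection.

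In the mammalian clock, the proteins of Arntl (also called Bmal1) and Clock bind DNA as a pair and switch on the Per, Cry and Nr1d genes. Per and Cry proteins then block that pair, while the nuclear receptors of Nr1d1 and Nr1d2 (REV-ERB alpha and beta) repress Arntl, so that transcripts rise and fall over the day. Bone cells hold such clocks, and fresh serum or glucocorticoids are known to reset the clocks of cells in culture.

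Each gene was read by oligonucleotide probes of 60 bases. Those of 3 clock genes have ends that lie further apart in the genome than 60 bases, so that they join stretches that are apart in genomic DNA. They are printed as they stand on the array, 5′ to 3′ in lower case, because the second Clock probe gave the widest spread, the second Per1 probe repeats a contrast between pairs described below, and the Nr1d1 probe gave no usable signal. In build rn4 their ends lie 5065 bases apart for Clock (chr14:34249295-34254359, plus strand), 585 for Per1 (chr10:55867840-55868424, plus strand) and 355 for Nr1d1 (chr10:87543165-87543519, minus strand).
Clock, second probe: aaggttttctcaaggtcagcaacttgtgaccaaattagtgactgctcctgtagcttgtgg
Per1, second probe: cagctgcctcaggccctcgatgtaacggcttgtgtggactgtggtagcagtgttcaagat
Nr1d1: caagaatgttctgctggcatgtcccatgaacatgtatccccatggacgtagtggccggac

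Of the 16 clock probes, 11 were well above background on all 8 arrays, 1 Clock probe was so on 7 of them, and 4 on none. Those 4 were the only probe of Nr1d1, 1 of 2 probes of Nr1d2 and 2 of 3 probes of Per3. No fitted fold change is given for Nr1d1, whose probe was not well above background in either group. The Clock probe in between was tested through the irradiated group, where it was well above background on 4 arrays against 3 in the other group. Over all probes, between 26543 and 30490 were well above background on an array. The median processed signal of an array was 56.2 to 84.8, and 0 spots were saturated.

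The arrays of replicate 2 stood apart, since they did not resemble each other as the arrays of other pairs did. For each array, the deviation of every probe from its group mean was set against that of every other array across 26250 probes, which are not independent replicates. Arrays of the same number correlated at 0.61, 0.57 and 0.75 for replicates 1, 3 and 4, but at 0.05 for replicate 2. The irradiated array of that number correlated at 0.44 with the non-irradiated array of replicate 1. The cartilage collagen gene Col9a1 was at 10.38 and 10.08 log2 in the non-irradiated and irradiated arrays of replicate 1. In those of replicate 2 it was at 15.89 and 16.37. This is 1 gene picked after its values were seen, and it does not tell which cells an array came from. Whether the arrays of replicate 2 come from the same animal or culture was not tested. Results that rest on replicates 1 and 2 are given below with and without them. Both arrays of a pair lay side by side on 1 slide, so the place on the slide cannot be told apart from irradiation or from replicate number.

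The cells expressed osteoblast genes. Of 10 osteoblast markers, 9 were well above background on all 8 arrays, and the osteocyte-linked gene Phex was so on 1 array of each group. The bone collagen genes Col1a1 and Col1a2 were at 17.91 to 18.29 and 17.32 to 17.65 log2 over the 8 arrays, and the osteoblast transcription factors Runx2, Sp7 and Dlx5 at 10.39 to 11.79, 4.71 to 5.55 and 10.18 to 11.01. The phosphatase gene Alpl was at 8.39 and 8.63 in the arrays of replicate 4 and at 10.11 to 10.90 in the others. Spp1, which encodes osteopontin, was at 14.23 to 14.86. Bglap, the osteocalcin gene, was at 6.65 to 8.81, and Ibsp, which encodes bone sialoprotein, at 4.47 to 6.52.

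No clock gene passed the limma test for irradiation. With adjusted p below 0.1 as the limit, 0 of the 12 clock probes were called, and 0 of 26400 probes in all (0.00%), the smallest adjusted p being 1.00. At an unadjusted p below 0.05 the clock count was again 0 of 12, against 670 of 26400 probes (2.54%). A paired test of each probe alone, with no pooling of the spread over probes, gave 0 probes after adjustment, 738 at an unadjusted p below 0.05, and 0 clock probes either way. None of the 12 probes was higher in irradiated cells in 4 of 4 pairs, against 3.57% of all probes, and none was lower in all 4 pairs, against 4%. The median log2 difference was -0.01 over the 12 clock probes and -0.00341 over all tested probes. With so few clock probes, counts of 0 lie near the background shares and say nothing particular about the clock.

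Arntl, whose protein is the DNA-binding partner of CLOCK, was at 10.38, 9.88, 9.92 and 9.62 log2 in non-irradiated replicates 1 to 4. In irradiated replicates 1 to 4 it was at 10.48, 9.76, 9.90 and 10.02. Both arrays of replicate 1 were the highest of their group, and the groups overlapped. The mean was 9.95 ± 0.32 (SD, n = 4) without and 10.04 ± 0.31 with irradiation. The log2 difference of 0.09 (SE 0.13) had a 95% interval from -0.23 to 0.41.

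Clock was measured by 2 dim probes. The first was at 4.62, 4.65, 5.14 and 4.77 log2 without irradiation and at 4.57, 4.76, 4.93 and 5.21 with it, in the order of replicates 1 to 4. The groups overlapped, and the log2 difference was 0.07 (SE 0.14). The second probe gave 0.29 (SE 0.29), with pair differences from -0.56 to 1.25, the widest spread among the tested clock probes. It passed the limit for brightness in the irradiated group alone, so its estimate is not read as a difference.

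Per1, a repressor gene that also responds acutely to glucocorticoids, was at 14.09, 13.38, 13.53 and 13.05 log2 in non-irradiated replicates 1 to 4. With irradiation the values were 13.49, 13.95, 13.55 and 13.02. The highest non-irradiated array was that of replicate 1 and the highest irradiated array that of replicate 2, while replicate 4 was lowest in both groups. The log2 difference was -0.01 (SE 0.20), with an interval from -0.49 to 0.48. The second Per1 probe, which is dimmer, gave 0.13 (SE 0.15).

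Per2, a second Period gene, was at 9.66, 9.02, 9.12 and 8.79 log2 without irradiation and at 9.17, 9.44, 8.90 and 8.77 with it. As for Per1, the highest arrays were non-irradiated replicate 1 and irradiated replicate 2. Its log2 difference was -0.08 (SE 0.17). Per3 varied least, lying between 7.19 and 7.39 on all 8 arrays, with a log2 difference of 0.01 (SE 0.12) from its 1 tested probe.

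The cryptochromes are the partners of the Period proteins in repression. Cry1 was at 11.22, 11.23, 11.31 and 10.71 log2 without irradiation, and at 11.34, 10.83, 11.24 and 10.95 with it. Non-irradiated replicate 4 lay below the rest of its group, and the groups overlapped. Cry2 was at 13.79, 13.40, 13.31 and 13.06 without irradiation and at 13.59, 13.41, 13.26 and 13.15 with it, so replicate 1 was highest and replicate 4 lowest in both groups. The log2 differences were -0.02 (SE 0.14) for Cry1 and -0.04 (SE 0.11) for Cry2.

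Nr1d2 was at 11.62, 10.40, 10.50 and 10.53 log2 without irradiation and at 10.95, 10.99, 10.22 and 10.40 with it. Non-irradiated replicate 1 stood over 1 log2 above the rest of its group. The log2 difference was -0.12 (SE 0.21), with an interval from -0.64 to 0.40. It was the lowest value among the tested clock probes.

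**Figure D1:**
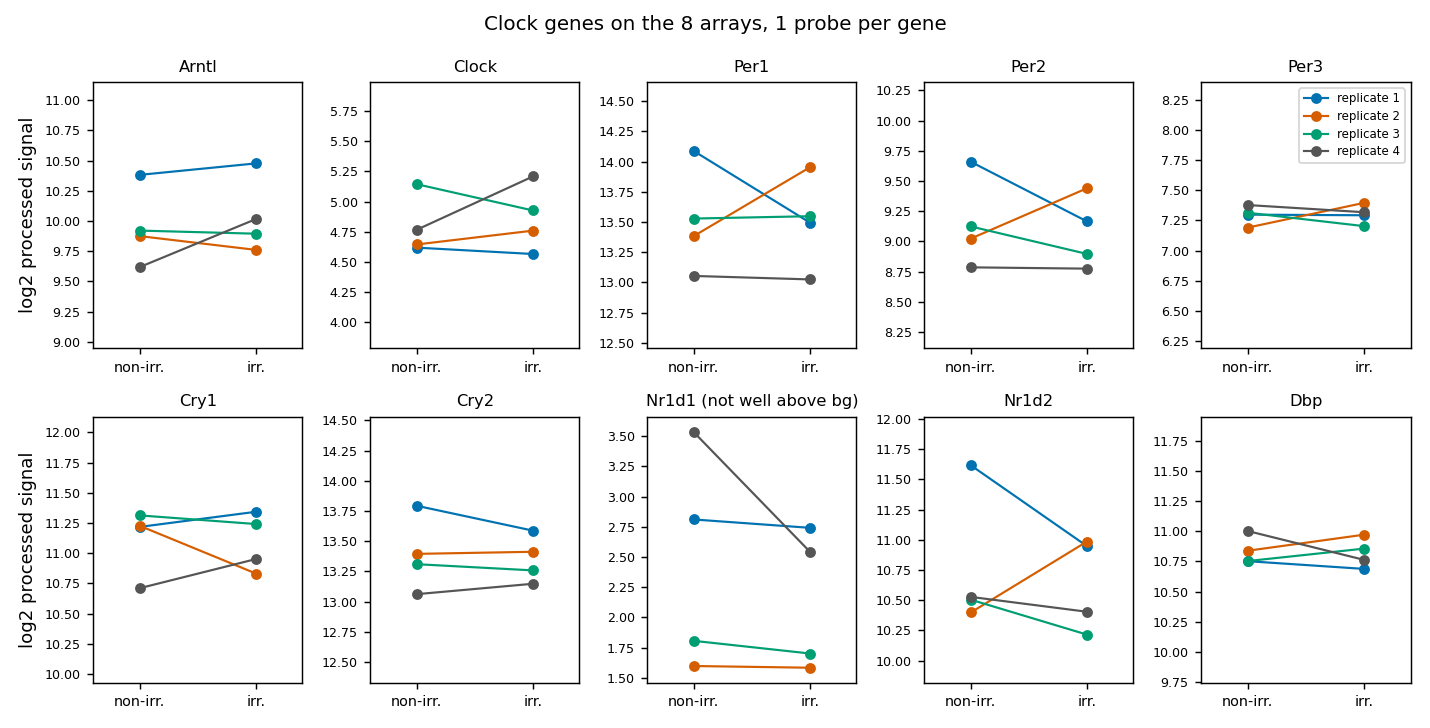
Log2 processed signal (vertical axis) of each clock gene on the non-irradiated (non-irr.) and irradiated (irr.) arrays, with the arrays of a replicate number joined by a line and each panel spanning the same height. The lines of replicates 1 and 2 cross for Per1, Per2, Per3 and Nr1d2, with replicate 1 the higher without irradiation, and for Cry1 in the opposite sense, and Nr1d1 was not well above background.

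Dbp, a clock output gene whose protein binds the D-box, offered a check on measurement error, since its first probe lay in 10 spots on each array, where every other clock probe had 1. The array means were 10.75, 10.84, 10.75 and 11.001 log2 without irradiation and 10.69, 10.97, 10.86 and 10.76 with it. The spots of an array had an SD between 0.04 and 0.09. The SD between array means was 0.12 (n = 4) in each group, a spread that also holds differences between cultures. Irradiated cells were lower in 2 pairs and higher in 2, and the log2 difference was -0.02 (SE 0.12), with an interval from -0.31 to 0.28. The second Dbp probe gave -0.10 (SE 0.13), and its pair differences had the same signs as those of the first in all 4 pairs.

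**Figure D2:**
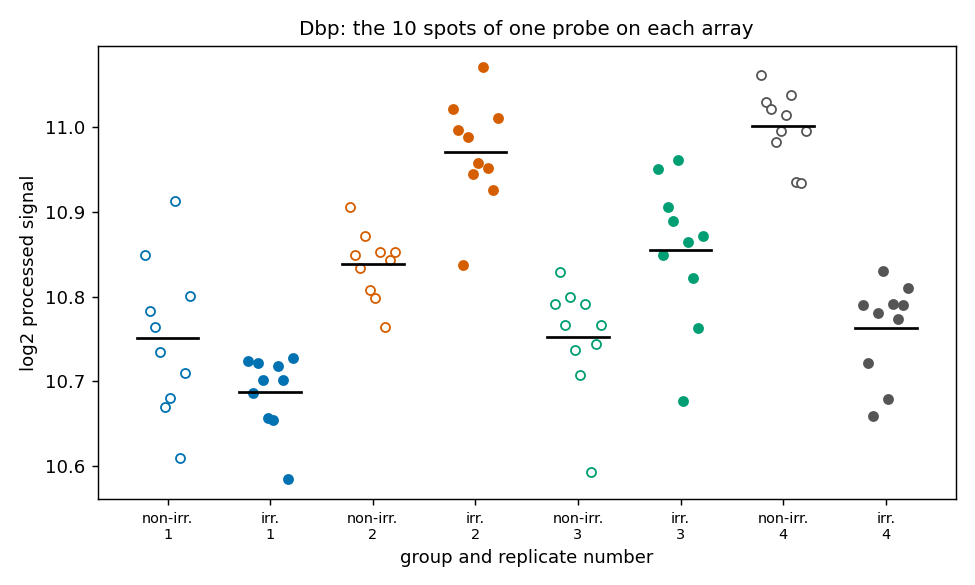
Log2 processed signal of the 10 spots of the first Dbp probe (vertical axis) on each array, ordered by replicate number; open points are non-irradiated, filled points irradiated, and bars mark the array means. Non-irradiated replicate 4 and irradiated replicate 2 have the highest means, 11.001 and 10.97.

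All 12 intervals held 0. The narrowest was that of Cry2, from -0.32 to 0.24, and the widest that of the second Clock probe, from -0.43 to 1.00. An interval that holds 0 does not show that values were equal. The plot of fitted differences shows the 12 probes side by side.

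**Figure D3:**
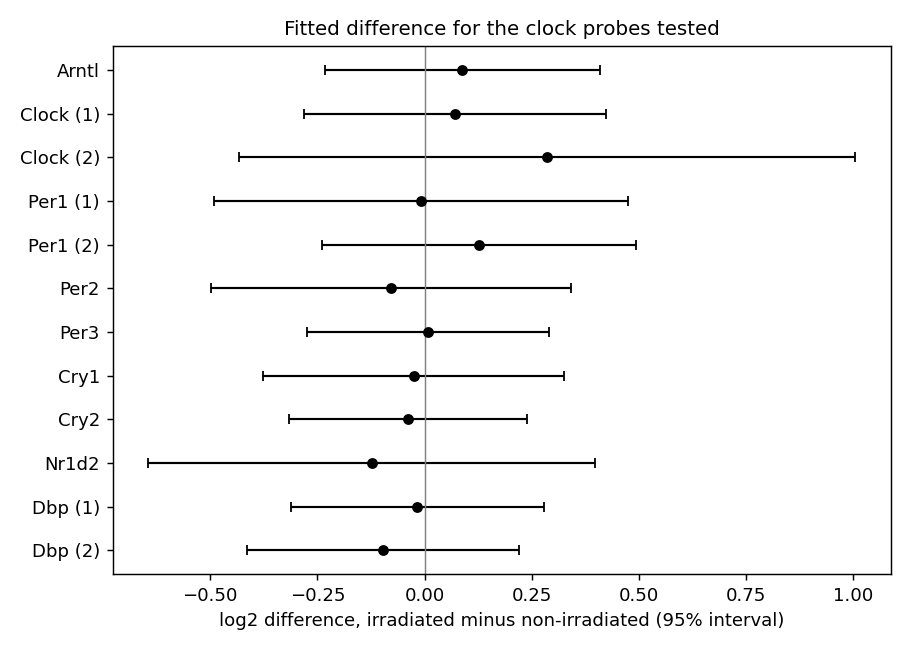
Fitted log2 difference, irradiated minus non-irradiated (horizontal axis), with its 95% interval for each clock probe tested; a number in brackets tells probes of a gene apart. Each interval crosses 0, and the estimates lie between -0.12 and 0.29.

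Activators were then set against repressors within each pair, with 1 probe per gene, as a description without a test. The mean irradiated minus non-irradiated difference of Arntl and Clock was 0.02, 0.00013, -0.12 and 0.42 log2 in pairs 1 to 4. That of the 7 repressors was -0.27, 0.20, -0.12 and -0.13. Activators minus repressors thus came to 0.29, -0.20, -0.0022 and 0.55, above 0 in 2 pairs and below in 2, with a mean of 0.16 ± 0.33 (SD, n = 4). The mean lay within 1 SD of 0. Nr1d1, which was not well above background, took part in the repressor mean, so the same was computed with the other 6. Without it the repressors were at 0.02 in pair 4, and activators minus repressors came to 0.33, -0.23, 0.00022 and 0.40, above 0 in 3 of 4 pairs, with a mean of 0.12 ± 0.30 (n = 4). Leaving out replicates 1 and 2 together gave 0.27 ± 0.39 (n = 2) with Nr1d1 and 0.20 ± 0.28 (n = 2) without it. Leaving out replicate 4 alone gave 0.03 ± 0.25 (n = 3) with Nr1d1. The differences of Dbp were -0.06, 0.13, 0.10 and -0.24.

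The 6 tested repressors had differences of opposite sign in pairs 1 and 2, and those of Per1, Per2 and Nr1d2 were the largest upward contrasts. From non-irradiated to irradiated, Per1 differed by -0.59 log2 in pair 1 and by 0.57 in pair 2. Per2 differed by -0.49 and 0.42, and Nr1d2 by -0.67 and 0.59. In pairs 3 and 4 the probes that stand for these genes lay between -0.29 and 0.02. The second Per1 probe went the same way in pairs 1 and 2, at -0.29 and 0.43, but was at 0.22 and 0.14 in pairs 3 and 4. Cry1 went the other way in pairs 1 and 2, at 0.13 and -0.39. Per3 was at -0.0051 and 0.20, and Cry2 at -0.21 and 0.02.

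This contrast between pairs was seen well beyond the clock. In 4 of 12 clock probes the difference in pair 2 lay above that in pair 1 by over 0.5 log2, a count chosen after seeing the values, against 30.3% of all probes. In 2 of 12, the second Clock probe and Cry1, it lay below by over 0.5, against 22.7% of all probes. The second Clock probe passed the limit for brightness in the irradiated group alone, so the count of 2 is not read. The count of 4 is near the background, so the contrast is not a result about clock genes. The SD of the pair differences over all probes was 0.40 and 0.56 in pairs 1 and 2, and 0.31 in both pairs 3 and 4. Without replicate 1, Per1, Per2 and Nr1d2 had log2 differences of 0.19 (SE 0.18), 0.06 (SE 0.18) and 0.06 (SE 0.21), with signs opposite to those over all pairs. Without replicate 2 they were -0.20 (SE 0.16), -0.24 (SE 0.14) and -0.36 (SE 0.15). Without replicates 1 and 2 together they were -0.0047 (SE 0.11), -0.12 (SE 0.12) and -0.21 (SE 0.12), and the clock count at an unadjusted p below 0.05 was 0 of 12 without either or both.

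**Figure D4:**
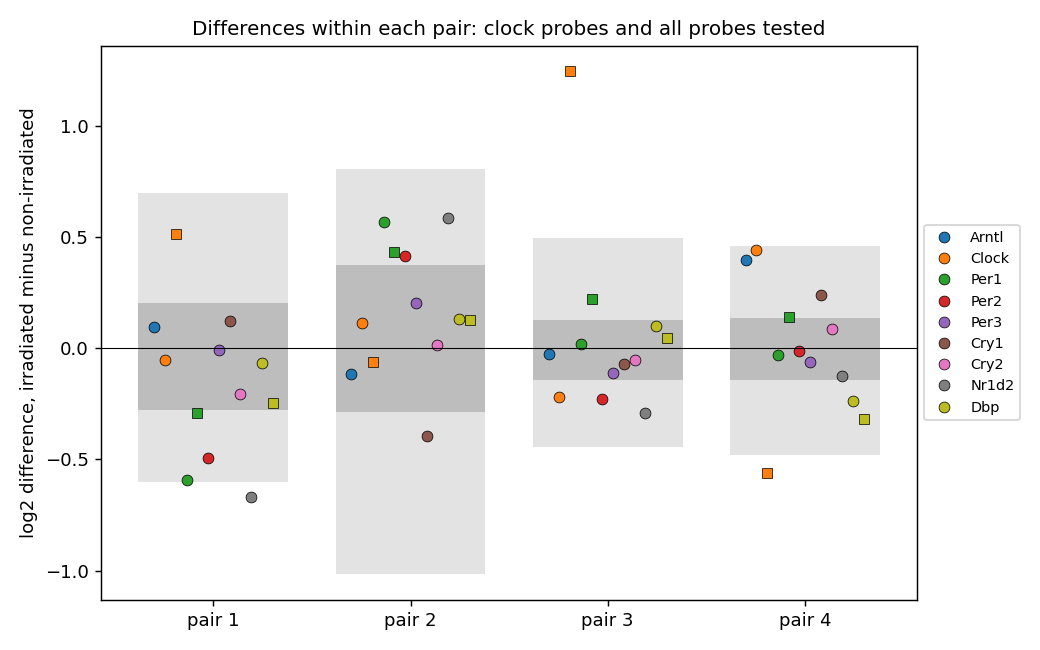
Irradiated minus non-irradiated log2 difference (vertical axis) of the clock probes in each pair, with circles for the probe taken for a gene and squares for a further probe; dark and light bands hold the middle 50% and the 5th to 95th percentile of all tested probes. The circles of Per1, Per2 and Nr1d2 lie at -0.49 or below in pair 1 and at 0.42 or above in pair 2, where the bands are widest.

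Replicate numbers were compared next, to ask how far clock genes differ between cultures. By the moderated F test of limma, 0 of 12 clock probes passed an adjusted p of 0.1, against 2422 of 26373 probes (9.18%). At an unadjusted p below 0.05 it was 1 of 12, Arntl, against 25.5% of all probes. The mean of the pair for Arntl was 10.43 log2 in replicate 1 and 9.82, 9.91 and 9.82 in replicates 2 to 4 (adjusted p = 0.19). Cry2 was at 13.69 in replicate 1, the highest, and at 13.11 in replicate 4, the lowest (adjusted p = 0.20). The means spanned a median of 0.47 log2 over the clock probes and 0.56 over all probes, from 0.09 for Per3 to 0.92 for Nr1d2.

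Leaving out replicate 2 moved this count to 5 of 12, namely Per1, Per2, Cry2, Arntl and Nr1d2, with adjusted p from 0.04 to 0.09. Over all probes it moved to 9628, or 36.5%, so the share among clock probes lay near the background. Each of the 5 was highest in replicate 1 among the 3 numbers left. Without replicate 1 the clock count was 0 and the count over all probes 148, and without replicates 1 and 2 together these were 0 and 1294.

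Some markers of other tissues passed the test for replicate number, which 9.18% of all probes did, and in a bulk culture fewer cells of a type cannot be told apart from less RNA per cell. In the cartilage list, 4 of 6 genes tested passed, namely Col9a1, Col2a1, Acan and Comp. The probe of Col9a1 had the highest mean signal of the list, although in both arrays of replicate 1 that of Comp was brighter. The summed signal of that list was 7299 and 7424 in the arrays of replicate 1 and between 83722 and 183016 in the others. The proteoglycan gene Acan was at 6.26 and 6.41 log2 in the arrays of replicate 1 and at 7.66 to 9.15 in the others. Comp was at 11.49 and 11.83 against 12.88 to 14.35. Matn1, which did not pass, also had its lowest replicate mean in replicate 1, at 3.79. Sox9, which did not pass either, was not lowest there. It was at 11.02 and 10.45 in replicate 1 and at 10.77 and 10.67 in replicate 4.

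In the muscle list, 2 of 6 genes tested passed, Myh3 and Myog. The probe of the embryonic myosin gene Myh3 had the highest mean signal, although that of Tnnt1 was brighter on 3 of 8 arrays. The summed signal of the list was 2958 and 2233 in the arrays of replicate 1 and 439 to 1029 in the others, and in replicate 1 it came mostly from Myh3. Myog, Ckm, Tnnt1 and Myod1 also had their highest replicate mean in replicate 1, at 7.13, 6.87, 7.52 and 5.26 log2. Acta1 and Des did not. Acta1 was at 6.62 and 6.47 log2 in replicate 1 and at 6.99 and 6.80 in replicate 3. Des had its lowest replicate mean in replicate 1. The muscle regulator gene Myod1 was well above background on 2 arrays of each group. In the endothelial list, 3 of 5 genes tested passed, Tek, Kdr and Vwf, and they did not share an order of replicates. The summed signal was highest in replicate 2, at 13040 and 18157, and Vwf had the brightest probe on every array. Tek was highest in replicate 1, at 8.20 and 7.85 log2 against 5.91 and 6.29 in replicate 2, and Kdr was at 9.43 and 9.21 in replicate 1 and at 8.83 and 9.79 in replicate 2. The genes Tie1 and Emcn were well above background on no array. In the macrophage list, 9 genes were on the array, 5 were tested and 1 passed, Tyrobp. There the sum was 1214 to 1783, and Cd14 had the brightest probe on every array, while Cd163 was well above background on no array and the leukocyte gene Ptprc on 1. The part of these cells in the clock values was not tested.

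The calls of these lists depended on replicates 1 and 2. Without replicate 1, when 0.561% of all probes passed, 0 cartilage and 0 macrophage genes passed, and Myh3 and Kdr alone passed in the muscle and endothelial lists. Without replicate 2, when 36.5% of all probes passed, 6 cartilage, 5 muscle, 2 endothelial and 4 macrophage genes passed. Without both, when 4.9% did, the cartilage count was 4, and it was 0 in the muscle, endothelial and macrophage lists.

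In the cell cycle list, 7 of 8 genes passed for replicate number, against 9.18% of all probes. Cdk1 was at 15.57 and 15.19 log2 in the arrays of replicate 4 against 13.91 to 14.23 in the others. Aurkb, Ccna2, Plk1 and Mki67 were likewise highest in both arrays of replicate 4. Without replicate 1 the count was 0, without replicate 2 it was 8, and without both it was 8. The shares of all probes that passed were then 0.561%, 36.5% and 4.9%. With irradiation 0 of the 8 passed, as did 0 of all 26400 probes, and their median log2 difference was -0.11. Of 11 glucocorticoid response genes tested, 2 passed for replicate number and 9 did not, where 9.18% of all probes passed. Without replicate 1, without replicate 2 and without both, 1, 5 and 2 passed, against 0.561%, 36.5% and 4.9% of all probes. Hsd11b1, whose enzyme regenerates active glucocorticoid, was at 10.15 and 10.13 in replicate 1 and at 6.45 and 6.49 in replicate 4, and Errfi1 at 15.30 and 15.04 against 13.56 and 13.83. With irradiation 0 of the 11 had an unadjusted p below 0.05, where 2.54% of all probes did, the median being 0.02.

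Further clock genes showed the same lack of calls. Of 13 accessory transcription factors, 12 were on the array and 9 were tested. For replicate number 0 passed, against 9.18% of all probes, and without replicate 2 it was 2, against 36.5%. Their median log2 difference for irradiation was -0.03, with 0 genes past the adjusted limit. At an unadjusted p below 0.05, 0 were higher and 1 of the 9 was lower, where 2.54% of all probes passed in either direction. That gene, Hlf, whose probe is also dim, encodes a relative of DBP that binds the same D-box. It was at 3.88, 4.10, 4.66 and 5.00 log2 without irradiation and at 3.80, 3.40, 3.84 and 4.21 with it, which is lower in 4 of 4 pairs although the groups overlapped. The log2 difference was -0.60 (SE 0.16), and it failed the correction in limma (unadjusted p = 0.0097, adjusted p = 1.00). With normexp background correction the difference was -0.14 and the unadjusted p in limma 0.10, and with no replicate block that p was 0.057.

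Of 16 kinases, ligases and other partners of the clock proteins, 14 were tested. None had an unadjusted p below 0.05 in limma for irradiation, where 2.54% of all probes did. The median log2 difference was 0.01, against -0.00341 over all tested probes. Timeless, which also acts in DNA replication, passed for replicate number (adjusted p = 0.046), at 10.17 and 9.93 log2 in the arrays of replicate 4 and at 8.50 to 9.28 in the others. For osteoblast markers the irradiation count was 0 of 9 with a median of 0.02, and 3 passed for replicate number, Alpl, Bglap and Ibsp, against 9.18% of all probes. Without replicate 1, when 0.561% of all probes passed, Timeless no longer passed and Alpl was the only osteoblast marker that did. Without replicate 2, when 36.5% of all probes passed, there were 5 kinases and partners and 4 osteoblast markers. Without both, when 4.9% did, there were 1 and 3. The medians for irradiation were 0.06 for macrophage, 0.07 for endothelial, 0.01 for muscle and -0.00070 for cartilage markers, with 0 genes at an unadjusted p below 0.05 in each of these lists. In lists this small, counts of 0 lie near the 2.54% of all probes and say nothing particular about these genes.

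The genes most like Dbp over the 8 arrays, by Pearson's r among 18444 probes with a gene symbol (18445 for Arntl), were Abhd8 (r = 0.96), Epsti1, Polr2e, Prlh and Lgr4 (r = 0.92 to 0.91). For Arntl they were Zbtb47 (r = 0.99), Rbm33, Tcf7, Zfp579 and Asnsd1 (r = 0.98 to 0.97). These are descriptions of 8 arrays treated as 4 pairs. The genes were picked for the highest r among so many probes, so a high r on part of the same arrays is no further support. Over the 6 arrays without replicate 1 r was 0.86 to 0.98 for the 5 genes of Dbp and 0.87 to 0.92 for those of Arntl. Over the 6 arrays without replicate 2 it was 0.89 to 0.96 and 0.97 to 0.99. Zbtb47, a zinc finger gene, was highest in both arrays of replicate 1, at 11.10 and 11.25 log2, as Arntl was. Abhd8, like Dbp, had its highest values in irradiated replicate 2 and non-irradiated replicate 4, at 13.51 and 13.49.

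Windows from 250 bases before to 50 after the annotated start were searched for letters linked to the clock, on both strands. RefSeq windows of build GRCr8 were found for 9 of the 10 genes, all but Cry1, with 11 windows in all. The E-box CACGTG, bound by the pair of CLOCK and ARNTL, stood in 1 of the 2 windows of Nr1d1, against 6.42% of all 33469 windows. The D-box TTATGTAA stood in the Per2 window, against 0.893%. The core of the ROR element, AGGTCA, at which REV-ERB and ROR receptors bind, stood in the windows of Arntl and Nr1d2, against 16.2%. The cAMP element TGACGTCA stood in none of the 11 windows, against 1.83%. A match describes letters in the window, and its absence says nothing of the factor.

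The 250 bases before the start are shown for Per2 and Nr1d2, which shared the contrast between pairs 1 and 2, and for Arntl. That contrast was not a result about clock genes, and a link between it and these letters was not tested. The search found no match in the Per1 window. Capitals mark the D-box in Per2 (minus strand, chr9:99496994-99497243) and the ROR element core in Nr1d2 (plus strand, chr15:9954784-9955033) and in Arntl (plus strand, chr1:176766078-176766327), all in GRCr8 and from RefSeq. Counted from the annotated start, the D-box of Per2 begins at -192, and the cores begin at -187 in Nr1d2 and at -15 in Arntl.
Per2: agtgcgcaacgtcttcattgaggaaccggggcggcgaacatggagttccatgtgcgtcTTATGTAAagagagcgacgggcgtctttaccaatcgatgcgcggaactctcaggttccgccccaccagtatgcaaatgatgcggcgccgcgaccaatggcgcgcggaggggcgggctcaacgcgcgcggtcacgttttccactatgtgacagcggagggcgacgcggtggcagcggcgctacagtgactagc
Nr1d2: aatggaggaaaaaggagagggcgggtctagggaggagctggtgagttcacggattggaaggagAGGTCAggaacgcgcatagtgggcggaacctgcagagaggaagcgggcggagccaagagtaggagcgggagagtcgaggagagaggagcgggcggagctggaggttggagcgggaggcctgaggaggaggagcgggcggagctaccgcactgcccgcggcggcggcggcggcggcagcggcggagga
Arntl: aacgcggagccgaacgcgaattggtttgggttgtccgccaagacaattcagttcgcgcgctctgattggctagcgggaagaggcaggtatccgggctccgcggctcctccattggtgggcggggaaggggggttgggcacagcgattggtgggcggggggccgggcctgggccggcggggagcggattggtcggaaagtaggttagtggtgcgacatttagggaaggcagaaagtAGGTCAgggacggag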

How the data were processed

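Total RNA of 8 cultures was measured on 1 one-colour Agilent array each, all on 1 slide read in 1 scan. The authors deposited spot intensity from Feature Extraction 11.0.1.1, whose processed signal has background and trends across the array removed. A deposited table of 24029 probes holds log2 values that the authors quantile normalized, used here only as an alternative. Their column medians were 7.62 to 7.66, and each correlated with the array of its label at r from 0.973 to 0.976. Without r against the other arrays, these values do not show which array a column matches best.

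Quantile normalization was applied to log2 processed signals of 58717 spots, those of all rat probes. Outlying spots were left out and spots of a probe averaged. Tests covered the 26400 probes that could be fitted and that, in either group, had more than 50% of spots well above background on every array. Arrays were compared with limma 3.58.1 in R 4.3.3, with replicate number as a block, two-sided and with Benjamini-Hochberg adjustment, and the code was tested on simulated data. A moderated F test compared replicate numbers. The block rests on the replicate numbers, by which both arrays of a number are taken as a pair. The sample titles give the number and name no animal, so what the arrays of a number share is not known. Deviations within pairs correlated at 0.61, 0.05, 0.57 and 0.75.

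Gene names are those of the array. All 10 clock genes matched a RefSeq symbol or synonym (GRCr8), with Arntl listed as Bmal1, and 14 of 16 probe accessions matched. Where a gene had several probes, the tested probe with the highest mean stood for it. Named are all clock genes, osteoblast markers, listed genes at unadjusted p below 0.05 for irradiation, up to 5 per list at adjusted p below 0.1 for replicate number, and the 5 genes most like Dbp and Arntl. Further markers of other cell types were named after their values were seen. Members and lists were chosen with earlier results of these data known. Alternatives covered scaling to the 75th percentile, normexp with an offset of 50, filters on dim probes, deposited values, outlying spots kept, other blocks, trend and robust estimation, probes averaged, a paired t-test and each replicate left out. Leaving out replicates 1 and 2 together, leaving out replicate 1 or 2 for lists and like genes, leaving out Nr1d1, and comparing pairs 1 and 2 were chosen after seeing the data.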

Additional observations from a re-analysis of the deposited data

Results flagged for a closer look

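Among the genes named, 10 of 100 groups of 4 arrays (10.0%) held an array whose gap to the nearest other was large for the range of its group. Chance gives about 1 in 20, but several of these genes were named because they differ by replicate number, so the share is not to be read against it. For clock genes these were Nr1d2 in non-irradiated replicate 1, at 11.62 log2 against 10.40 to 10.53 in the others, and Cry1 in non-irradiated replicate 4, at 10.71 against 11.22 to 11.31.

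In non-irradiated replicate 4, Mki67 was at 13.53 (others 11.98 to 12.10), Plk1 at 14.51 (12.95 to 13.08) and Ccna2 at 13.59 (11.94 to 12.18). In irradiated replicate 4, Cdk1 was at 15.19 (14.00 to 14.21) and Alpl at 8.63 (10.34 to 10.57). Col2a1 was at 9.84 in non-irradiated replicate 1 (15.07 to 15.82), Rbm33 at 10.09 in irradiated replicate 1 (9.23 to 9.37), and Col1a1 at 17.91 in irradiated replicate 2 (18.19 to 18.24).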

How the results depend on the processing

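Under every alternative run, limma or a paired t-test called 0 probes for irradiation after adjustment, and 0 clock probes had an unadjusted p below 0.05. Of 144 clock gene differences under alternatives, 69 came from settings that left the estimate as it was, such as another block or filter. Of the other 75, 59 kept their sign and 16 did not. The largest in size was 0.36 log2, and the smallest unadjusted p was 0.0533. The difference between activators and repressors lay between 0.03 (without replicate 4) and 0.28 (without replicate 2) when each replicate was left out. Signal near background limits Nr1d1, the Clock probes and Hlf. For the shifts that follow the cause was not tested, and counts without 1 replicate depended on which was left out.

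The 670 probes at an unadjusted p below 0.05 became 253 with normexp correction, 1658 with no filter, 292 with deposited values, 384 with trend and robust estimation, 392 to 1411 with each replicate left out (lowest without replicate 3, highest without replicate 2), and 1678 without replicates 1 and 2. With no replicate block there were 246. With pairing taken as a random block (correlation 0.44) there were 694.

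The 2422 probes that differed by replicate number became 618 with no filter, 3675 with deposited values, 148 to 9628 with each replicate left out (lowest without replicate 1, highest without replicate 2), and 1294 without replicates 1 and 2. Among clock probes the count of 0 became 1 with normexp correction (Arntl), 1 with trend and robust estimation (Cry2), and 0 to 5 with each replicate left out. The share of probes whose difference in pair 2 lay above that in pair 1 by over 0.5 log2 was 19.9% with normexp correction.

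Signs turned as follows. With normexp correction Per1 was at 0.0089 log2 and Per3 at -0.0014, with deposited values Per3 was at -0.0063, and with probes averaged Per1 was at 0.059. Without replicates 1 and 2, Per3 was at -0.085, Cry1 at 0.085 and Cry2 at 0.017. With each replicate left out in turn, Arntl ran from -0.015 to 0.16, Clock from -0.052 to 0.17, Per1 from -0.20 to 0.19, Per2 from -0.24 to 0.059 and Per3 from -0.058 to 0.047. Cry1 ran from -0.11 to 0.098, Cry2 from -0.080 to 0.017, Nr1d2 from -0.36 to 0.058 and Dbp from -0.066 to 0.057. Signs turned without replicate 1 for Per1, Per2, Cry2 and Nr1d2, without replicate 2 for Per3 and Cry1, and without replicate 4 for Arntl, Clock and Dbp. Hlf ran from -0.80 without replicates 1 and 2 to -0.14 with normexp correction, with unadjusted p in limma from 0.0018 to 0.10. It was below 0 in all 15 alternatives, but several of these, such as another block or filter, left its estimate at -0.60. Hlf was named for its unadjusted p on these same arrays, so its steady sign is no further support.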
